A study of Mus musculus with 14 samples.

Results

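Fatty acid elongases and desaturases lengthen acyl-CoA chains and put double bonds into them, and the transcripts of 10 genes of these families were followed in mouse hepatocellular carcinoma cells lacking ACLY, ACSS2 or both. ACLY makes cytosolic acetyl-CoA from citrate and ACSS2 makes it from acetate, so both enzymes stand upstream of fatty acid synthesis. The members were taken by symbol, as Elovl1, Elovl2, Elovl5, Elovl6, Elovl7, Scd1, Scd2, Fads1, Fads2 and Fads3, and were 10 of the 24972 gene symbols measured.

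All cells were derived from tumors that diethylnitrosamine induced in mice with floxed Acly alleles, and were kept for 24 hours in DMEM with 10% serum before poly(A) RNA was sequenced. WT cells were a bulk population carrying the empty LentiCRISPR v2 vector, with 4 libraries. ACLY KO cells were a clone obtained with adenoviral Cre and then given the same empty vector, with 4 libraries. ACSS2 KO cells were a single clone edited with a guide to Acss2 exon 1, with 3 libraries. DKO1 was a single clone of the ACLY KO line edited with an Acss2 guide, with 3 libraries. Each knockout therefore was 1 clone, and genotype and clone cannot be told apart. Nothing in the labels says that libraries of a group were separate cultures, so the p-values below measure only the spread between these libraries.

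Total normalized counts per library ranged from 23565707 (DKO1 replicate 1) to 26946164 (DKO1 replicate 4). Acly was at 5461 to 6435 normalized counts in WT and 5542 to 5762 in ACSS2 KO, against 965 to 1084 in ACLY KO and 931 to 956 in DKO1. Acss2 was at 224 to 252 in WT and 127 to 135 in ACSS2 KO. It was at 660 to 787 in ACLY KO and 455 to 578 in DKO1, so DKO1 lay below the ACLY KO line it was derived from (log2 fold change -0.43 ± 0.09 SE, limma adjusted p = 0.0044) but above WT. In this bulk RNA, fewer cells of a type and less RNA per cell cannot be told apart. The 7 hepatocyte markers summed to 48122 to 65018 in WT and 34625 to 37792 in ACLY KO. Their sums were 41016 to 43984 in ACSS2 KO and 26207 to 44944 in DKO1. In WT, Krt8 (23383 to 31017) and Krt18 (24370 to 33761) made up nearly all of the sum, and Alb was at 27.7 to 36.9. Marker counts are to be read against the shares of all genes called higher and lower against WT. These were 23.8% and 24.7% for ACLY KO, 15.0% and 11.0% for ACSS2 KO, and 27.9% and 28.1% for DKO1. Of the 5 hepatocyte markers tested, ACLY KO had 3 lower, ACSS2 KO 1 higher and 2 lower, and DKO1 1 higher and 4 lower. Hnf4a was lower in each line, with log2 fold changes of -2.90 for DKO1, -2.59 for ACLY KO and -2.10 for ACSS2 KO, but Alb was higher in ACSS2 KO (2.06) and Apob in DKO1 (1.16). The 4 bile duct markers summed to 21647 to 31969 in WT, 8608 to 9374 in ACLY KO, 18274 to 20516 in ACSS2 KO and 11195 to 18276 in DKO1, and none was called higher, while DKO1 had 3 lower, ACLY KO 4 and ACSS2 KO 1. The 5 fibroblast or stellate markers summed to 1973 to 2264 in WT, 3009 to 3369 in ACLY KO, 4450 to 5332 in ACSS2 KO and 1376 to 1451 in DKO1, with Col1a1 at 2.52 in ACLY KO and Acta2 at 1.42 in ACSS2 KO, both past the test. Of these 5, ACSS2 KO had 3 higher and none lower, and the lines without ACLY each had 3 higher and 1 lower. The lower one was Acta2, at -1.39 in ACLY KO and -1.10 in DKO1. Col1a1 was at 0.29 in ACSS2 KO and at 0.16 in DKO1, where it did not pass the test. The 4 endothelial markers summed to 18.6 to 28.3 in WT and 77.1 to 92.3 in ACLY KO. Their sums were 10.5 to 18.3 in ACSS2 KO and 40.2 to 51.2 in DKO1. Only 1 of them, Pecam1, was tested, and it was higher by 2.97 in ACLY KO and 2.27 in DKO1. The untested markers had low counts and went different ways. All libraries without ACLY lay above all WT libraries for Cdh5 but below them for Kdr, and Tek overlapped WT. No marker of these 4 lists was at 0 in every library, and the part of these levels in the results below was not tested.

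Elongation of an acyl chain starts with an ELOVL condensing enzyme, which joins malonyl-CoA to an acyl-CoA. ELOVL6 extends palmitate and its monounsaturated partner, ELOVL1 and ELOVL7 act on longer saturated and monounsaturated chains, and ELOVL2 and ELOVL5 act on polyunsaturated chains. The stearoyl-CoA desaturases place the first double bond of monounsaturated fatty acids, whereas FADS1 and FADS2 add the double bonds that turn dietary essential fatty acids into long polyunsaturated ones. FADS3 belongs to the same family and acts on sphingoid bases. In liver many of these genes are known targets of SREBP-1c, the factor that raises lipogenic transcripts.

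In GRCm38 the members lie on 5 chromosomes, and the desaturases share one. Fads3 (chr19:10041569-10060110, plus strand), Fads2 (chr19:10062765-10101746, minus strand) and Fads1 (chr19:10182888-10196877, plus strand) form a cluster, and Scd2 (chr19:44293674-44306864, plus strand) and Scd1 (chr19:44394455-44407879, minus strand) lie farther along the same chromosome. Elovl1 is at chr4:118428093-118432953, Elovl5 at chr9:77917364-77984519 and Elovl6 at chr3:129532355-129638495, all on the plus strand. Elovl2 (chr13:41182381-41220405, minus strand) and Elovl7 (chr13:108214404-108285683, plus strand) are on chromosome 13.

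Per transcript length, Elovl1 was the most abundant elongase transcript in WT, with 39.2% ± 1.1 (SD, n = 4) of the summed elongase level, followed by Elovl5 with 32.1% ± 0.69, Elovl6 with 17.9% ± 1.1 and Elovl7 with 10.8% ± 0.38. The ranges of the 4 shares did not overlap in WT. Elovl2 was listed at 0 in 12 of 14 libraries, and its highest value was 0.86 normalized counts, about 1 read, so it was left out of the tests. Of the stearoyl-CoA desaturases, Scd2 made up 99.5% ± 0.054 of the summed Scd1 and Scd2 level in WT and 99.9% in each knockout line. Among the FADS genes, Fads3 held 44.4% ± 2.8, Fads1 29.1% ± 0.60 and Fads2 26.5% ± 2.7 of the WT level, and the ranges of the 3 shares did not overlap.

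Of the 9 members tested in ACLY KO against WT, 1 was higher and 5 were lower at an adjusted p under 0.05 in limma, while across all 12693 genes tested 23.8% were higher and 24.7% were lower. The median log2 fold change of the members was -0.33, and that of all genes was -0.01. In ACSS2 KO against WT no member was higher and 2 were lower, where 15.0% and 11.0% of all genes were called. In DKO1 against WT 1 member was higher and 5 were lower, against 27.9% and 28.1% of all genes. With a fold change beyond 1.5 on the log2 scale at an adjusted p under 0.01, which 9.84% of genes passed for DKO1, 8.80% for ACLY KO and 2.42% for ACSS2 KO, the 1 member that passed for each line was Scd1. The 3 comparisons share the WT libraries.

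**Figure D1:**
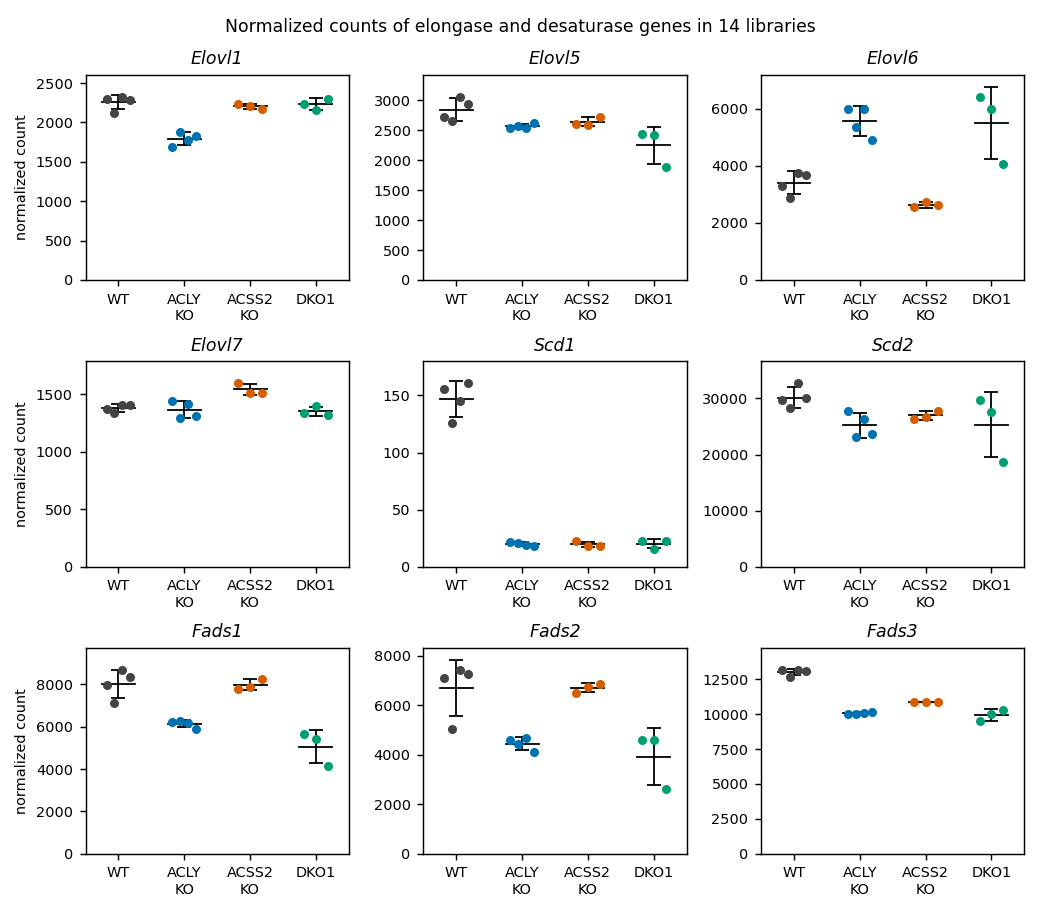
Normalized counts (y axis, linear from 0) of the 9 members tested in each library of WT, ACLY KO, ACSS2 KO and DKO1 (x axis). Points are libraries, horizontal bars are group means and error bars are SD. Scd1 sits between 126 and 160 in WT and between 15.5 and 22.8 in the 10 knockout libraries, and Elovl6 is higher in ACLY KO and DKO1.

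Scd1, the stearoyl-CoA desaturase that dominates in adult liver, fell furthest. It was at 156, 126, 145 and 160 normalized counts in the 4 WT libraries. It was at 21.4, 20.8, 18.9 and 18.3 in ACLY KO, at 22.3, 18.6 and 17.8 in ACSS2 KO, and at 22.4, 15.5 and 22.8 in DKO1. All knockout libraries lay below all WT libraries, and the 3 knockout lines overlapped one another. ACLY KO differed from WT by -2.82 ± 0.15 on the log2 scale (SE, adjusted p = 7.64e-09), ACSS2 KO by -2.85 ± 0.16 (adjusted p = 9.58e-08) and DKO1 by -2.81 ± 0.16 (adjusted p = 1.7e-08), or 7.08-fold, 7.20-fold and 7.03-fold lower. These values were the 103rd, 27th and 121st lowest of the 12693 genes in their comparisons.

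Scd1 was thus lower in every knockout line, and DKO1 was at a level close to that of ACLY KO. WT was a bulk population and every knockout line came from a single clone, so enzyme loss and cloning cannot be told apart here. DKO1 differed from ACLY KO by 0.01 (95% CI -0.34 to 0.36), and the interaction of ACLY and ACSS2 loss, which is the change on ACSS2 loss in ACLY KO cells minus that in WT cells, was 2.86 ± 0.23 (adjusted p = 1.65e-06). The counts behind it are low, as an Scd1 value stood for about 16.1 to 137 reads in a library. Of the 4888 distinct 75-base stretches of Scd1 transcripts, 3.15% also occurred in transcripts of other genes, Scd2, Scd3 and Scd4 among them, and the normalized count of Scd1 was 0.445% to 0.534% of that of Scd2 in WT and 0.0559% to 0.122% of it in the knockout lines. The part of shared reads in the level that remained was not tested.

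Scd2, the stearoyl-CoA desaturase of brain and of early liver and the main one here, moved little. It was at 29660, 28222, 32681 and 30037 normalized counts in WT, at 27833, 23072, 26389 and 23609 in ACLY KO, at 26405, 26685 and 27820 in ACSS2 KO, and at 29679, 27667 and 18728 in DKO1. ACLY KO and ACSS2 KO lay below the WT range, but the differences of -0.26 (95% CI -0.53 to 0.01) and -0.16 (95% CI -0.45 to 0.13) did not pass the test, nor did that of -0.28 (95% CI -0.56 to 0.01) in DKO1. Single libraries moved these results, as DKO1 was at -0.07 (adjusted p = 0.474) without DKO1 replicate 4 and at -0.40 (adjusted p = 0.0216) without DKO1 replicate 1, and the ACLY KO value passed in 4 of 26 other settings, among them without DKO1 replicate 4 (adjusted p = 0.00455). The within-library log2 ratio of Scd1 to Scd2 was -7.68 ± 0.14 in WT and -10.24 ± 0.14 in ACLY KO, a difference of -2.56 (exact two-sided permutation test, p = 0.0286, the smallest that 4 against 4 libraries can give).

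Elovl6, which takes palmitate to stearate, was the member that rose. It was at 3292, 2886, 3746 and 3691 normalized counts in WT and at 5979, 5352, 6000 and 4911 in ACLY KO. It was at 2549, 2735 and 2612 in ACSS2 KO and at 6428, 5993 and 4073 in DKO1. The libraries without ACLY all lay above those with it, and ACSS2 KO lay below all WT libraries. ACLY KO exceeded WT by 0.71 ± 0.13 on the log2 scale (adjusted p = 0.000581) and DKO1 exceeded it by 0.67 ± 0.14 (adjusted p = 0.00143), a 1.64-fold and 1.59-fold higher level. ACSS2 KO was at -0.36 (95% CI -0.67 to -0.05, adjusted p = 0.0825), and passed the test in 5 of 26 other settings. The median of the 630 genes tested on chromosome 3 was -0.23 for ACSS2 KO and 0.03 for both lines without ACLY. DKO1 and ACLY KO differed by -0.04 (95% CI -0.35 to 0.27).

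**Figure D2:**
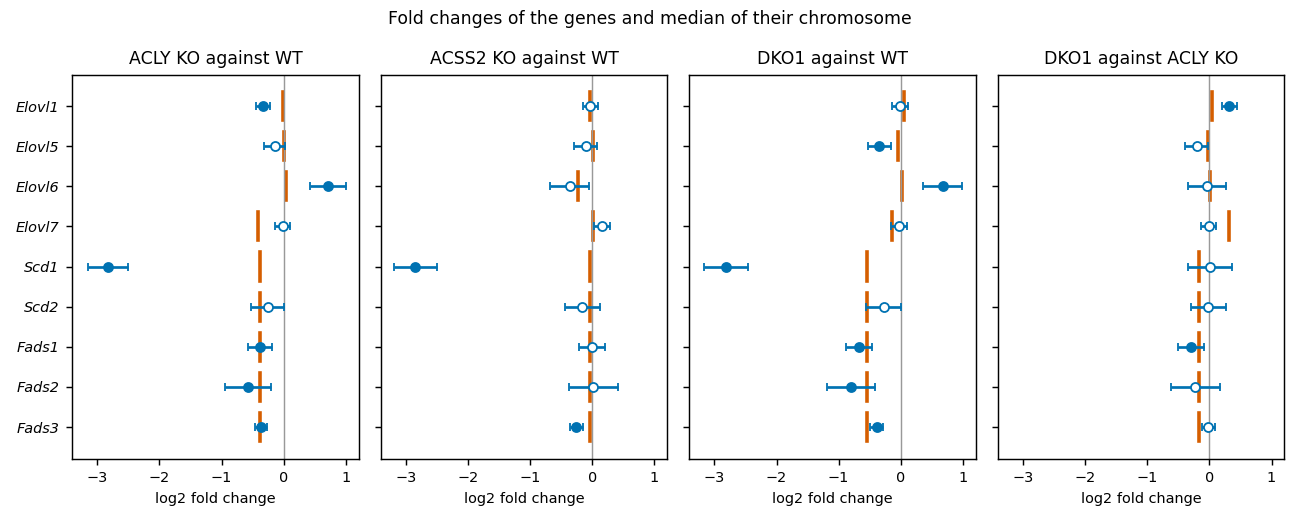
Log2 fold change (x axis) of each member (y axis) in 4 comparisons. Points are limma estimates with 95% confidence intervals, filled where the adjusted p was under 0.05, and each orange bar is the median of all genes tested on that member's chromosome. The Fads points sit near the chromosome 19 bar in ACLY KO and DKO1, whereas Scd1 sits far below it.

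The rise of Elovl6 also showed in its share of the family. Its share of the elongase level per length went from 17.9% ± 1.1 in WT to 27.7% ± 4.1 (SD, n = 3) in DKO1 and to 29.3% ± 2.3 (SD, n = 4) in ACLY KO, and was 14.8% ± 0.56 in ACSS2 KO. In ACLY KO the shares of Elovl1 (31.1% ± 1.8), Elovl6 and Elovl5 (29.0% ± 1.0) had overlapping ranges. In DKO1 Elovl6 overlapped Elovl5 (24.4% ± 1.3), because its lowest library was at 23.1%. The log2 ratio of Elovl6 to Elovl5 was 0.25 ± 0.09 for WT and -0.01 ± 0.07 for ACSS2 KO, against 1.11 ± 0.16 for ACLY KO and 1.27 ± 0.15 for DKO1. By exact two-sided permutation test it differed from WT by 0.86 in ACLY KO (p = 0.0286) and by 1.02 in DKO1 (p = 0.0286), and by -0.26 in ACSS2 KO (p = 0.0571). In all, 12 such differences of ratios were examined.

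**Figure D3:**
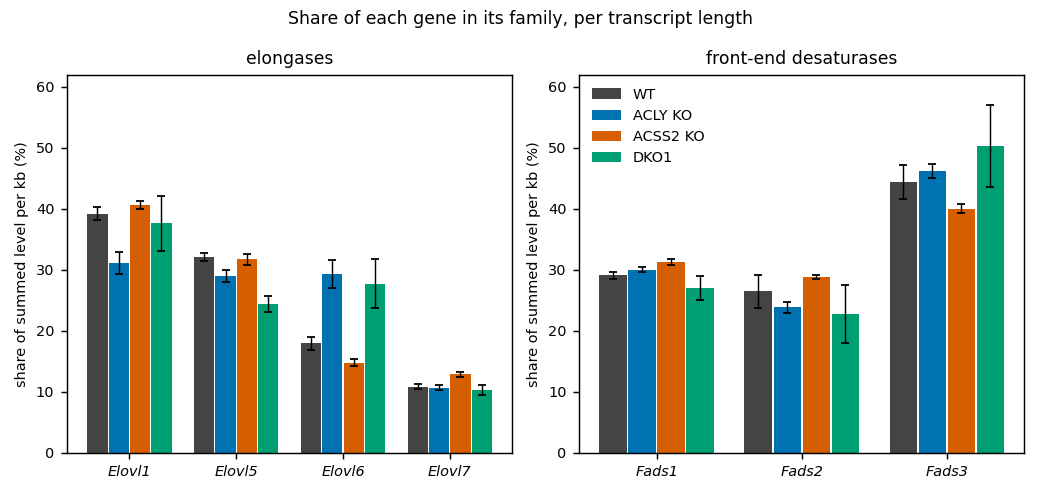
Share (y axis, percent of the family's summed level per kilobase of transcript) of each elongase and each FADS gene, by group. Bars are means over 4 libraries of WT and ACLY KO and 3 of the other lines, and error bars are SD. The Elovl6 bars are near 29.3% in ACLY KO and 27.7% in DKO1 against 17.9% in WT.

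Elovl1, which makes very long saturated chains for sphingolipids, was lower in ACLY KO alone among the 3 lines. It was at 2294, 2122, 2329 and 2283 normalized counts in WT, at 1684, 1879, 1779 and 1826 in ACLY KO, at 2235, 2207 and 2167 in ACSS2 KO, and at 2239, 2162 and 2302 in DKO1. ACLY KO did not overlap the other groups, which overlapped one another. It differed by -0.33 ± 0.05 in ACLY KO against WT (adjusted p = 0.000149) and by 0.32 ± 0.06 in DKO1 against ACLY KO (adjusted p = 0.00112), and the interaction was 0.35 ± 0.08 (adjusted p = 0.00553). The chromosome 4 median was -0.01 in ACLY KO and 0.05 in DKO1, both against WT. With a correction for transcript length, the difference between DKO1 and ACLY KO was 0.18 (adjusted p = 0.172) and no longer passed. The interaction lost its call with that correction (0.23, adjusted p = 0.202) and with equal library totals (0.20, adjusted p = 0.135).

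Elovl5, the elongase of polyunsaturated chains, was lower in DKO1. It was at 2716, 2652, 3064 and 2946 normalized counts in WT, at 2545, 2569, 2539 and 2625 in ACLY KO, at 2607, 2588 and 2727 in ACSS2 KO and at 2432, 2417 and 1894 in DKO1. DKO1 lay below every other library, and ACLY KO lay just under the WT range. The log2 fold change was -0.35 ± 0.09 in DKO1 (adjusted p = 0.00377), where the chromosome 9 median was -0.04, and was -0.14 (95% CI -0.32 to 0.03) in ACLY KO. The DKO1 value was -0.23 without DKO1 replicate 4, the lowest library, and still passed the test. The call was lost with equal library totals (-0.28, adjusted p = 0.055) and with only the groups compared (adjusted p = 0.0504).

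Elovl7, an elongase of saturated and monounsaturated long chains, did not pass the test against WT in the fit of all libraries. It was at 1371, 1334, 1405 and 1409 normalized counts in WT, at 1437, 1295, 1415 and 1307 in ACLY KO, at 1594, 1514 and 1514 in ACSS2 KO and at 1334, 1395 and 1321 in DKO1. ACSS2 KO lay above the other groups, with a log2 fold change of 0.16 (95% CI 0.04 to 0.28, adjusted p = 0.0574), which passed in 5 of 26 other settings, among them equal library totals (0.27, adjusted p = 0.0177) and without DKO1 replicate 4 (adjusted p = 0.0263). In ACLY KO the value of -0.02 stood beside a chromosome 13 median of -0.42.

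Fads1, the delta-5 desaturase, was lower in both lines without ACLY. It was at 7953, 7142, 8669 and 8370 normalized counts in WT, at 6240, 6264, 6183 and 5907 in ACLY KO, at 7771, 7895 and 8270 in ACSS2 KO, and at 5637, 5408 and 4151 in DKO1. Neither ACLY KO nor DKO1 overlapped WT, DKO1 lay below ACLY KO, and ACSS2 KO lay within the WT range. Against WT, DKO1 was at -0.67 ± 0.10 (adjusted p = 6.86e-05) and ACLY KO at -0.38 ± 0.09 (adjusted p = 0.0034), whereas ACSS2 KO was at -0.01 (95% CI -0.22 to 0.21). The ACLY KO call was lost with equal library totals and with quantile normalization.

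Fads2, the delta-6 desaturase that opens the polyunsaturated pathway, was also lower in both lines without ACLY, with a wider spread than Fads1. It was at 7106, 5021, 7404 and 7247 normalized counts in WT, at 4577, 4444, 4678 and 4093 in ACLY KO, at 6500, 6744 and 6852 in ACSS2 KO, and at 4570, 4586 and 2612 in DKO1. The low libraries within their groups were WT replicate 2 and DKO1 replicate 4, and even so no library without ACLY reached the WT range. Log2 fold changes were -0.57 ± 0.17 in ACLY KO (adjusted p = 0.0121), -0.80 ± 0.18 in DKO1 (adjusted p = 0.00218) and 0.02 (95% CI -0.37 to 0.41) in ACSS2 KO. Without DKO1 replicate 4 the DKO1 value was -0.53 (adjusted p = 0.00236), and the ACLY KO call was lost with equal library totals. The log2 ratio of Fads1 to Fads2 differed between ACLY KO and WT by 0.19 (exact two-sided permutation test, p = 0.114), and by 0.27 (p = 0.0286) without WT replicate 2.

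Fads3 was lower in all 3 knockout lines. It was at 13160, 12708, 13146 and 13101 normalized counts in WT, at 10008, 10031, 10108 and 10150 in ACLY KO, at 10899, 10908 and 10883 in ACSS2 KO, and at 9519, 10001 and 10320 in DKO1. ACSS2 KO lay between WT and the lines without ACLY, with no overlap. DKO1 was at -0.39 ± 0.05 (adjusted p = 1.82e-05), ACLY KO at -0.37 ± 0.05 (adjusted p = 1.61e-05) and ACSS2 KO at -0.26 ± 0.05 (adjusted p = 0.0016), all against WT. The interaction was 0.24 ± 0.07 (adjusted p = 0.0213) and lost its call in 5 of 25 other settings, among them equal library totals (0.09, adjusted p = 0.428), quantile normalization (0.13, adjusted p = 0.23) the replicate block (0.23, adjusted p = 0.0687) and without ACSS2 KO replicate 4 (0.24, adjusted p = 0.0512). With equal library totals the ACSS2 KO value was -0.15 (adjusted p = 0.0605), and with quantile normalization it was also -0.15 (adjusted p = 0.0521). The ACSS2 KO call was lost in both settings.

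Chromosome 19, which holds the desaturase members, was lower as a whole in the lines without ACLY. The median log2 fold change of its 453 genes tested was -0.54 for DKO1 and -0.38 for ACLY KO, against -0.04 for ACSS2 KO. Why this chromosome was lower was not tested. The 15 other genes tested within 500 kb of Fads1 had medians of -0.91, -0.62 and -0.09 in the same order. With the median of each chromosome removed in each library, a step chosen after these medians were seen, Fads1 was at -0.01 (adjusted p = 0.961) in ACLY KO and -0.11 (adjusted p = 0.423) in DKO1. Fads2 was then at -0.20 (adjusted p = 0.41) and -0.24 (adjusted p = 0.327), and Fads3 at 0.00 (adjusted p = 0.954) and 0.17 (adjusted p = 0.00951). So neither Fads1 nor Fads2 passed the test in a line without ACLY once the median of the chromosome was taken out, and Fads3 turned from lower to higher in DKO1, while Scd1 remained at -2.45 in ACLY KO and -2.25 in DKO1. Fads3 in ACSS2 KO stayed lower at -0.24 (adjusted p = 0.00296), and Elovl7 in ACLY KO, on chromosome 13, was then higher at 0.42 (adjusted p = 9.13e-06).

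**Figure D4:**
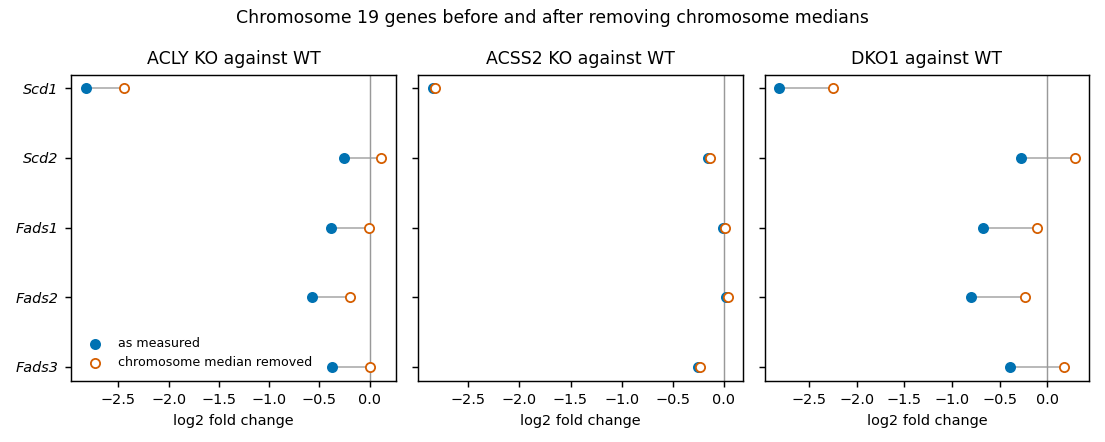
Log2 fold change against WT (x axis) of the 5 members on chromosome 19 (y axis), as measured (filled) and with the chromosome median of each library removed (open). Fads1 and Fads3 move to about 0 in ACLY KO, Scd1 stays at -2.45, and the ACSS2 KO values hardly move.

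DKO1 against ACLY KO asks what loss of ACSS2 added where ACLY was already absent. Elovl1 was higher and Fads1 was lower, with 14.3% and 13.6% of all genes called higher and lower. Fads1 differed by -0.29 ± 0.10 (adjusted p = 0.0415), beside a chromosome 19 median of -0.17, and lost its call in 17 of 26 other settings, without DKO1 replicate 4 among them. The other 7 members tested lay between -0.23 and 0.01, where the chromosome 13 median was 0.32. With chromosome medians removed, Elovl7 was lower at -0.31 (adjusted p = 0.000772) and Fads3 higher at 0.17 (adjusted p = 0.0225).

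The single knockouts also differed from each other and DKO1 from ACSS2 KO. In ACLY KO against ACSS2 KO, where 23.1% of genes were higher and 25.3% lower, Elovl6 was higher by 1.08 ± 0.14 (adjusted p = 3.47e-05) and Elovl1, Elovl7, Fads1 and Fads2 were lower. In DKO1 against ACSS2 KO, where 25.9% were higher and 27.8% lower, Elovl6 was higher by 1.04 ± 0.15 (adjusted p = 8.15e-05) and Elovl5, Elovl7, Fads1, Fads2 and Fads3 were lower. Of these, Fads3 at -0.13 lost its call in 18 of 26 other settings, being at -0.01 (adjusted p = 0.837) with transcript length correction, and turned higher in 1. Elovl5 at -0.24 lost it in 13 of 26, among them without DKO1 replicate 4 (-0.12, adjusted p = 0.115), and Elovl7 at -0.19 in 4 of 26, among them without ACSS2 KO replicate 1 (-0.17, adjusted p = 0.072). Scd1 was at 0.02 (95% CI -0.32 to 0.37) and 0.03 (95% CI -0.34 to 0.41) in these comparisons. For the interaction, 12.0% of all genes were called higher and 15.1% lower, and Elovl1, Fads3 and Scd1 were the 3 members called, all higher.

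Levels of some members within a group also moved together. After the mean of each genotype was removed, Elovl5, Elovl6, Scd2, Fads1 and Fads2 correlated with one another over the 14 libraries at Pearson's r of 0.83 to 0.97, a description of libraries that share their gradients. With these genes Fads3 was at -0.62 to -0.33, Elovl1 at -0.38 to 0.02, Scd1 at -0.26 to -0.04 and Elovl7 at 0.26 to 0.55. DKO1 replicate 4 deviated from its genotype's mean by -0.54 on the log2 scale for Fads2 and by -0.41 for both Elovl6 and Scd2, but by 0.05 for Fads3. In that library the deviation of all genes from the genotype mean had a Spearman correlation of -0.71 with transcript length, and in WT replicate 2 of -0.62, against 0.67 and 0.62 in the other DKO1 libraries, and it was also negative in ACLY KO replicate 4 (-0.60) and ACSS2 KO replicate 1 (-0.55). Without both libraries Elovl6, Scd1, Fads1, Fads2 and Fads3 kept their calls in ACLY KO and DKO1 against WT.

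**Figure D5:**
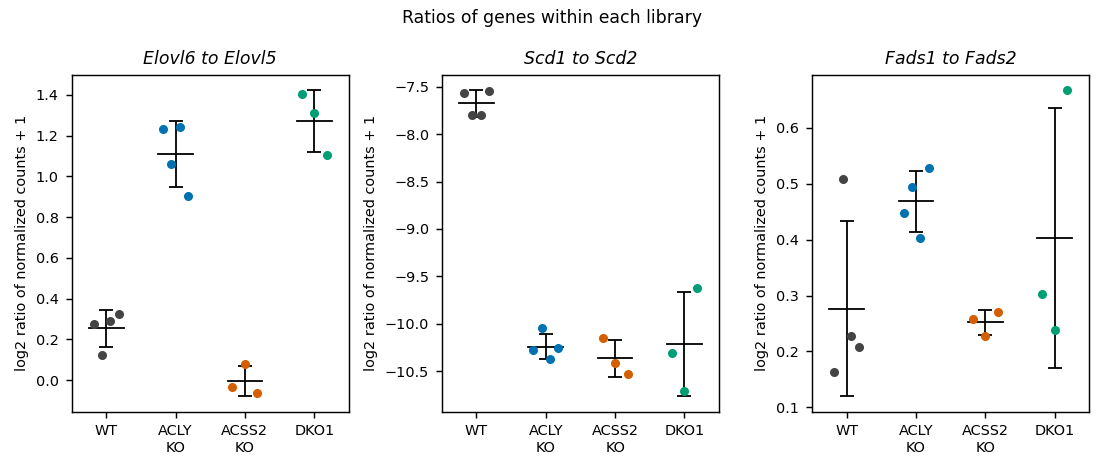
Log2 ratio (y axis) of Elovl6 to Elovl5, Scd1 to Scd2 and Fads1 to Fads2 in each library by group (x axis), from normalized counts with 1 added. Points are libraries, horizontal bars are means and error bars are SD. The lines without ACLY stand above WT for Elovl6 to Elovl5, all knockout lines stand below WT for Scd1 to Scd2, and 1 WT library stands apart for Fads1 to Fads2.

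The genes whose log2 values ran most like a member's over the 14 libraries, among 11020 candidates, were Gja1 (r = 0.99), Itpripl2 and Lad1 for Scd1, and Sec24d (r = 0.98), Ptpn1 and Slc12a2 for Elovl6. Those for Fads1 were Pdzd8, Bend3 and Ppp6r3, for Fads2 Myo1e, Arhgef18 and Plekhh2, and for Fads3 Nes, Wdr1 and Kcmf1. These likenesses are descriptions over 4 genotypes.

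RefSeq upstream sequence (GRCm38.p6) was at hand for 7 of the 10 members. Among them Elovl6 rose in the lines without ACLY, Elovl5 fell in DKO1 and Fads3 fell in every line. With chromosome medians removed, Fads3 was at 0.00 in ACLY KO and 0.17 in DKO1. The sequences of these 3 are shown because their transcripts behaved differently. Each runs 5′ to 3′ on the plus strand and ends at the base before the GENCODE start of the gene for Elovl6 and Elovl5 and before the RefSeq start for Fads3, with matches on either strand to the CCAAT box, to the GC box (GGGCGG) and to the E-box (CACGTG) in capitals.
Elovl6, chr3:129532136-129532354: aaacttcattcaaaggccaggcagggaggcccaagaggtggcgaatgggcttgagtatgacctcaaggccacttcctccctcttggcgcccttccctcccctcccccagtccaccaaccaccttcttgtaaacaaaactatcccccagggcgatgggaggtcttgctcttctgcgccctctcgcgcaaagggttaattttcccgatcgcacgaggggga
Elovl5, chr9:77917115-77917363: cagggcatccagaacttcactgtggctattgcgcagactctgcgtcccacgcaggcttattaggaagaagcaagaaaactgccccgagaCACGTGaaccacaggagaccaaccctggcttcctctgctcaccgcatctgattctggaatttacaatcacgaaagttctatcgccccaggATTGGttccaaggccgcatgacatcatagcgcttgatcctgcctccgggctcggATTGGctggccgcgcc
Fads3, chr19:10041298-10041547: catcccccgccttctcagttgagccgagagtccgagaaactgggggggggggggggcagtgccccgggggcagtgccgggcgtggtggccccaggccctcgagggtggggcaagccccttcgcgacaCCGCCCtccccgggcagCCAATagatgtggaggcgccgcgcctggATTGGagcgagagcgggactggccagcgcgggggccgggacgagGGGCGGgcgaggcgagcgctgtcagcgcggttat

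Elovl5 held 1 CACGTG (an E-box) 161 bases before the RefSeq start and 2 CCAAT matches, Fads3 held 2 CCAAT and 2 GGGCGG matches, and Elovl6 held none of them. TCACNCCAC, the core of a sterol regulatory element, was in none of the 3. Over the 250 bases before 32851 RefSeq starts, CCAAT was found in 33.85%, GGGCGG in 32.7%, CACGTG in 6.02% and TCACNCCAC in 1.05%. A match is a description of the letters only.

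Family members with little expression were Elovl3, Scd3 and Fads6, which stayed below the mean of 10 normalized counts needed for a test. Elovl4, an elongase of very long chains, was at 53.1, 53.6, 48.3 and 37.6 normalized counts in WT, at 12.0, 24.8, 17.2 and 21.5 in ACLY KO, at 77.7, 73.8 and 82.3 in ACSS2 KO and at 28.9, 16.5 and 30.7 in DKO1. It was lower in ACLY KO (-1.34 ± 0.23, adjusted p = 0.000351) and DKO1 (-0.93 ± 0.25, adjusted p = 0.007), and at 0.70 (adjusted p = 0.0613) in ACSS2 KO. Scd4 was higher in DKO1 by 0.74 ± 0.26 (adjusted p = 0.0267).

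The enzymes that complete each elongation cycle moved in both directions. The counts here and in the next lists are to be read against the shares of all genes called higher and lower, 23.8% and 24.7% for ACLY KO, 15.0% and 11.0% for ACSS2 KO, and 27.9% and 28.1% for DKO1, with medians of all genes of -0.01, 0.00 and 0.00. Of the 6 tested, 3 were higher and 2 lower in ACLY KO (median 0.23), 1 higher and 2 lower in ACSS2 KO (median -0.13), and 4 higher and 1 lower in DKO1 (median 0.24). Hsd17b12, the ketoacyl reductase, was at 0.49 ± 0.05 for DKO1, 0.29 ± 0.05 for ACLY KO and -0.36 ± 0.05 for ACSS2 KO, each past the test and each of the same sign as Elovl6 in that line. Hacd3, a dehydratase, was at -0.43 in ACLY KO and -0.36 in DKO1, both past the test. Tecr, the enoyl reductase, was at -0.30 in ACLY KO and 0.19 in DKO1, both past the test. Of the 5 genes that supply electrons to desaturases, DKO1 had 3 higher and none lower (median 0.22), ACLY KO had 3 higher and 1 lower (median 0.19), and ACSS2 KO had none higher and 2 lower (median -0.18). Cyb5r3, the cytochrome b5 reductase, was at 0.32 for DKO1, 0.19 for ACLY KO and -0.41 for ACSS2 KO, each past the test.

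Genes that use the products were tested beside them, with 23.8% of all genes higher and 24.7% lower for ACLY KO, 15.0% and 11.0% for ACSS2 KO, and 27.9% and 28.1% for DKO1. Of 6 acyltransferases and synthetases that handle polyunsaturated chains, ACLY KO had 4 higher and none lower (median 0.17), ACSS2 KO 2 higher and none lower (median 0.19), and DKO1 4 higher and 2 lower (median 0.23). Acsl4, which activates arachidonate, was higher by 0.45 ± 0.09 in ACLY KO and 1.02 ± 0.10 in DKO1, while Fads1 and Fads2 were lower in the same lines. Of 6 ceramide genes, ACLY KO had 3 higher and none lower (median 0.34), ACSS2 KO 1 of each (median 0.06), and DKO1 2 higher and none lower (median 0.31). Degs1, the ceramide desaturase, was higher in all 3 lines, at 0.38, 0.39 and 0.72, and Cers2, a ceramide synthase, was lower in ACSS2 KO at -0.38. Of 6 peroxisomal genes, ACLY KO had 2 higher and 1 lower (median 0.17), ACSS2 KO none (median 0.17), and DKO1 3 higher and none lower (median 0.36). Abcd3, an importer of acyl-CoA, was higher by 1.11 ± 0.10 in ACLY KO and 0.91 ± 0.11 in DKO1.

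Genes upstream of the members moved in both directions, beside the same shares of all genes (23.8% higher and 24.7% lower for ACLY KO, 15.0% and 11.0% for ACSS2 KO, 27.9% and 28.1% for DKO1). Of 8 genes of palmitate and malonyl-CoA supply, DKO1 had 4 higher and 1 lower (median 0.53), ACSS2 KO had none higher and 2 lower (median -0.10), and ACLY KO had 3 higher and 1 lower (median 0.30), Acly being the lower one in the lines without ACLY and Acss2 one of their higher ones. Acacb, which makes malonyl-CoA at mitochondria, was higher by 1.59 ± 0.18 in ACLY KO and 0.78 ± 0.19 in DKO1. Of 12 regulators tested, DKO1 had 5 higher and 2 lower (median 0.00), ACSS2 KO had 2 of each (median 0.12), and ACLY KO had 3 higher and 1 lower (median -0.03). Pparg, the adipogenic receptor, was at -1.82 for ACSS2 KO, -0.87 for ACLY KO and -0.65 for DKO1, each past the test, and so was lower in the same 3 lines as Scd1. Insig1, a sterol-sensing retention factor, was at 0.26 for ACLY KO, -0.68 for ACSS2 KO and 0.89 for DKO1, each past the test. Of 19 genes of sterol synthesis and uptake, 4 were higher and 4 lower in ACLY KO (median 0.01), none higher and 13 lower in ACSS2 KO (median -0.50), and 11 higher and 3 lower in DKO1 (median 0.38). Sqle, the squalene epoxidase, was at 0.24, -0.43 and 0.83 in the same order of lines, each past the test.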

How the data were processed

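Per the labels and the study's methods, directional poly(A) libraries were sequenced as 75-base single reads, aligned with STAR to GRCm38, and counted and normalized by the authors with DESeq2 (version 1.0.1 in the submitters' processing notes). The deposited signal values are counts divided by normalization factors, not whole reads: on the scale of 1 read, 0.717 to 1.334 normalized counts, 54.9% to 85.4% of low values fell on whole multiples. They were therefore tested as log2(value + 1) with limma 3.58.1 (trend on mean level, R 4.3.3), in 1 fit of all 14 libraries, keeping the 12693 genes whose mean reached 10, and fold changes understate those of low genes. Adjusted p-values are Benjamini-Hochberg over all genes tested. Levels per length used GENCODE vM21 transcripts. 26 symbols turned into dates were left out. Members and gene lists were chosen with earlier results of these data known. All members were named, and of each other list the genes with the smallest adjusted p. Ratios used exact permutation tests, also for 4 against 3 libraries. The fit was tested on simulated data. Other constants, filters, scalings, a replicate block and left-out libraries were tried.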

Additional observations from a re-analysis of the deposited data

Results flagged for a closer look

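In WT, replicate 2 stood apart from the other 3 libraries for Fads2, where its gap to the nearest library was 0.875 of the group's range, and for Fads3, where it was 0.870. Both are above Dixon's limit for 4 libraries, which chance passes in about 1 in 20 groups, and 18 groups were examined. The interaction term of the limma fit was 0.35 for Elovl1, 2.86 for Scd1 and 0.24 for Fads3 on the log2 scale. Enzyme loss and clone cannot be told apart in it. With equal library totals the term no longer passed for Elovl1 (0.20, adjusted p = 0.135) or Fads3 (0.09, adjusted p = 0.428), and it was lost in 2 of 25 settings for Elovl1, in 5 of 25 for Fads3 and in none for Scd1.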

How the results depend on the processing

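Over 26 alternatives, Scd1 in all 3 lines and Elovl6 in ACLY KO and DKO1, each against WT, kept direction and call. With chromosome medians removed, chosen after seeing the data, 4 values reversed: Fads3 was at 0.0038 in ACLY KO and 0.17 in DKO1 against WT and 0.41 in DKO1 against ACSS2 KO, and Elovl7 was at 0.24 in ACLY KO against ACSS2 KO. Fads1 and Fads2 in ACLY KO lost their calls with equal library totals, and Fads1 also with quantile normalization.

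Members called in ACSS2 KO against WT went from 2 to 4 with transcript length correction, ranged from 2 to 4 over left-out libraries (4 without DKO1 replicate 4) and were 6 excluding WT replicate 2 and DKO1 replicate 4, also chosen after seeing the data. For DKO1 against ACLY KO, 2 became 1 with no filter on low values, the replicate block, only the groups compared, equal library totals, quantile normalization, transcript length correction or no intensity trend, and ranged from 1 to 3 over left-out libraries. For DKO1 against ACSS2 KO, 6 became 3 with only the groups compared or transcript length correction and ranged from 3 to 6, with 3 without ACSS2 KO replicate 1. For the interaction, 3 ranged from 2 to 5, with 5 without DKO1 replicate 4 and 5 excluding both libraries. The Fads1 to Fads2 ratio ranged from 0.15 to 0.27 and was 0.27 without WT replicate 2, alone or with DKO1 replicate 4. The cause was not tested.

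Replicate numbers did not pair the libraries, since 5 of 18 same-numbered pairs had a correlation over 0.1, and the replicate block left 1 member called in DKO1 against ACLY KO. Equal library totals moved the median of all genes to 0.10 in ACLY KO and 0.11 in ACSS2 KO against WT and to -0.16 for the interaction. The share of calls that were higher went from 49.1% to 61.9%, from 57.8% to 75.8% and from 44.3% to 28.1%, and in ACSS2 KO to 41.1% with transcript length correction, where all calls rose to 42.0% of genes. Scd1 rests on the fewest reads.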
